A study of Homo sapiens with 6 samples.

Results

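Desmosomes are the spot-like junctions that anchor the keratin filaments of neighbouring epithelial cells to one another, and 10 genes of their components were read here in an oesophageal squamous carcinoma line with lowered RAB23. The genes are DSG2, DSG3, DSC2, DSC3, DSP, PKP1, PKP2, PKP3, JUP and PERP. They were taken by symbol from a table of 58735 genes, and earlier results of these data were known when they were chosen. The cells were KYSE30, an established human line, and every group received an siRNA at 100 nM with a lipid reagent. The groups were a control siRNA (si-NC) and the RAB23 siRNAs si-RAB23-1 and si-RAB23-9, with 2 libraries each. The 2 libraries of each siRNA are labelled as biological replicates with no word on whether the cultures were separate, so p-values reflect only how far these libraries differ, which may be technical.

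The core of a desmosome is built from desmosomal cadherins of the desmoglein (DSG) and desmocollin (DSC) kinds, whose outer domains bind across the gap between cells. Inside the cell their tails hold plakoglobin (JUP) and plakophilins (PKP), and these are joined through desmoplakin (DSP) to the keratin filaments. In a stratified squamous epithelium such as the epidermis the isoforms change with the cell layer. There DSG3 and DSC3 are typical of the basal layers and PKP1 of the upper layers, while DSG2 and DSC2 occur in many epithelia.

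Values are FPKM, fragments per gene scaled to the gene's length and the library's size. Reads recovered from the FPKM, summed over all genes, came to between 17211025 and 24178125 per library. RAB23, which encodes a small GTPase known to dampen Hedgehog signalling, measured 3.27 and 3.33 FPKM in the control libraries. It measured 1.03 and 1.10 after si-RAB23-1 and 1.18 and 1.27 after si-RAB23-9, below both control libraries in all 4 cases (by -1.06 and -0.95 on the log2 scale, limma adjusted p = 0.00314 and 0.00392). Voom on reads recovered from the FPKM put the first at -1.65. Of 8 squamous markers, SFN, TP63, DSG3, KRT6A, KRT14 and KRT17 reached 1 FPKM in at least 1 library, whereas KRT5 (0.0394 to 0.272 FPKM) and PKP1 did not. Markers of simple columnar epithelium (10 genes, summed FPKM 0.660 to 1.21) and leukocytes (10 genes, 0.659 to 1.09) did not reach 1 FPKM in any library. The keratins KRT19, KRT8 and KRT18, which are in none of these marker lists, had control means of 1282.8, 627.0 and 421.4 FPKM. Control means of the keratins in the squamous list, KRT6A, KRT17, KRT14 and KRT5, were 3.99, 2.37, 2.19 and 0.0542 FPKM. The low sum of the columnar list therefore says nothing of KRT19, KRT8 and KRT18. Of 10 fibroblast markers only COL1A1 reached 1 FPKM, with THY1, DCN, PDGFRA, COL1A2 and LUM at 0 in every library and summed levels of 3.45 to 3.97.

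In control cells the desmosomal transcripts spanned a wide range of levels, with plakoglobin at the top and plakophilin 1 close to 0. JUP, which also serves in adherens junctions, was at 172.2 and 162.5 FPKM in control cells. It was followed by PERP (mean 66.1), PKP3 (64.0), DSG2 (52.0), DSP (32.4), PKP2 (11.1), DSG3 (9.15), DSC2 (6.26) and DSC3 (3.21). No neighbours in this order overlapped in their 2 control libraries. The order depends on the length that FPKM is divided by: the table uses all exons of a gene together, and per length of the principal transcript, an alternative chosen after seeing the data, PKP3 came to 86.2 and stood above PERP. Under it PKP2 came to 18.2 and JUP to 236.5, and the other places in the order stayed. PKP1 rested on 4 and 3 reads in the control libraries, on 1 and 3 after si-RAB23-1 and on 5 and 5 after si-RAB23-9. At such counts no difference was detectable, and PKP1 was not tested.

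**Figure D1:**
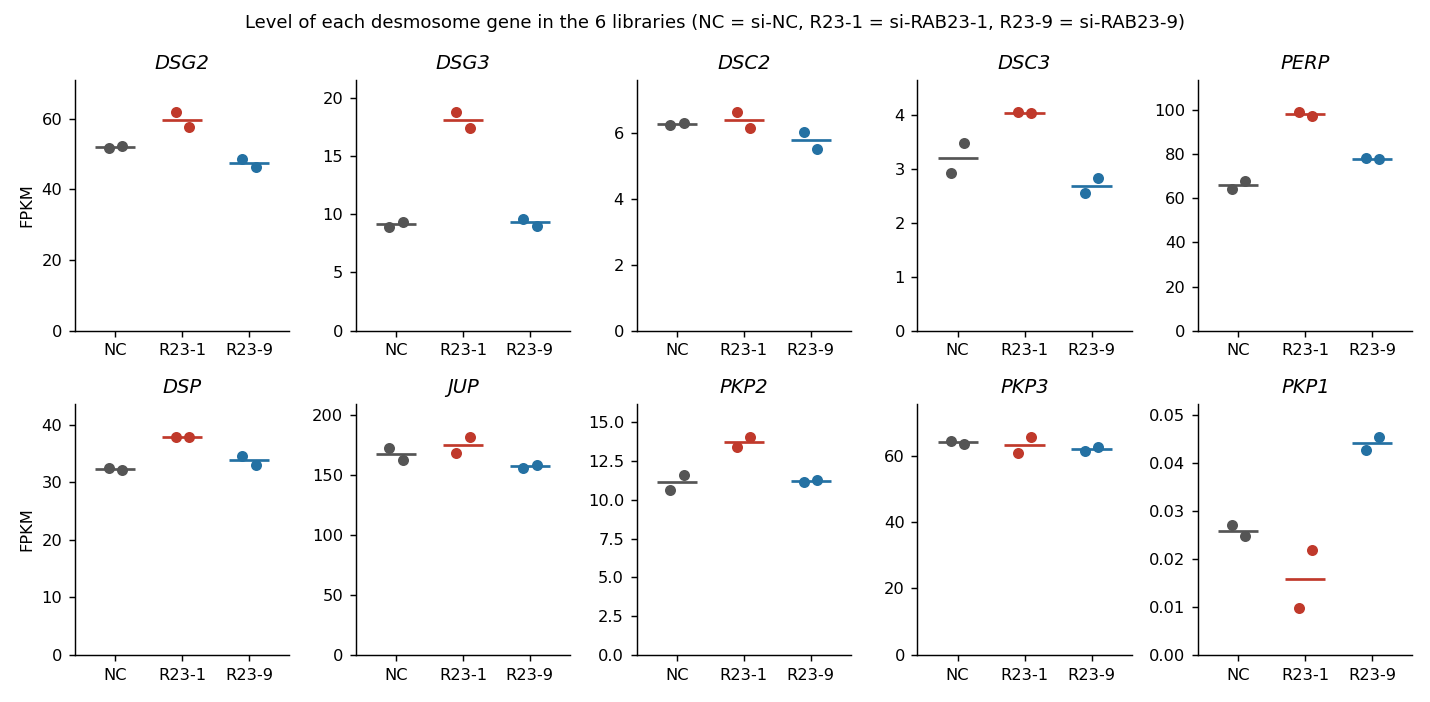
FPKM of each desmosome gene, 1 panel per gene with its own linear axis from 0; points are the 2 libraries of each siRNA (grey for the control, red for si-RAB23-1, blue for si-RAB23-9) and lines their means. The si-RAB23-1 points of DSG3 (18.8 and 17.4 FPKM) and PERP (99.0 and 97.6) stand above all others in their panels, and PKP1 stays under 0.05 FPKM throughout.

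The 4 cadherin genes lie in 1 cluster on chromosome 18 (GRCh38), in the order DSC3, DSC2, DSC1, DSG1, DSG4, DSG3 and DSG2 by start position. DSC3 (30990008 to 31042815) and DSC2 (31058840 to 31102522) are on the minus strand, and DSG3 (31447795 to 31478702) and DSG2 (31498043 to 31549008) on the plus strand. The genes between DSC2 and DSG3 were nearly silent: DSC1 had 4 to 20 reads per library, DSG1 at most 3 and DSG4 at most 1. DSG2 and DSG3, the neighbours at the distal end, differed 5.68-fold in control level while the desmogleins beside them had almost no reads. The antisense RNA DSG2-AS1 overlaps DSG2, and because no source used here gives the strandedness of the libraries, their reads cannot be told apart. DSG2-AS1 itself was assigned 10 to 15 reads per library, against 5103 to 7924 for DSG2. DSCAS overlaps DSC2 and was assigned at most 6 reads, and AC087588.1 and AC087588.2 overlap PKP2.

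DSG3, DSG2 and PERP are shown by their promoters because DSG3 and PERP changed most with si-RAB23-1 while DSG2, the neighbour of DSG3, changed less. Each sequence runs from 250 bases before to 50 bases after the RefSeq start (GRCh38.p14), 5′ to 3′ on the gene's own strand. Capitals mark matches on either strand to any of 7 motifs: the TATA box (TATAAA), the CCAAT box, the GC box (GGGCGG), the AP-1 site (TGANTCA), the E-box of SNAI and ZEB factors (CAGGTG), the TEAD site (GGAATG) and the GRHL site (AACCNGTT).
DSG3, chr18:31447491-31447790, plus strand: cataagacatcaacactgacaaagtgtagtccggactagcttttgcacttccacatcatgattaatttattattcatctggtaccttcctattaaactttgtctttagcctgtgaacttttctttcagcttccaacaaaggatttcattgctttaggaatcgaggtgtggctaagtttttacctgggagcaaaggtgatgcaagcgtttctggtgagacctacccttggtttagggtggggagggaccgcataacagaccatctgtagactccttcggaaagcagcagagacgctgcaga
DSG2, chr18:31497927-31498226, plus strand: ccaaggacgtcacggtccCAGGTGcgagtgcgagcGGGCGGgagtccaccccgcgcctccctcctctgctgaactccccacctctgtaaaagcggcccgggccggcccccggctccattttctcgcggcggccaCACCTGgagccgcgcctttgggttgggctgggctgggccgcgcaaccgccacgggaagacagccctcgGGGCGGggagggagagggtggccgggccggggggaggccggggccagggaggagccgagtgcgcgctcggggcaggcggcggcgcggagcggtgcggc
PERP, chr6:138107370-138107669, minus strand: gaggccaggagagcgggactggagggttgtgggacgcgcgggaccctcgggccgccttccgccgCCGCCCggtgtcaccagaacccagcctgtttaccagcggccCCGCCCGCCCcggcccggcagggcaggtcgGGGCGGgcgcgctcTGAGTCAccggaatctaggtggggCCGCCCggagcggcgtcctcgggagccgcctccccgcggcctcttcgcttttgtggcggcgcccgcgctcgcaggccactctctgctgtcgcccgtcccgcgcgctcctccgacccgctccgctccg
The DSG3 window was 44.0% G and C, lower than all but 18.8% of 35116 RefSeq promoters of this length (median 58.7%), and held none of the 7 motifs. The DSG2 window was 76.7% G and C with 2 GC boxes and 2 E-boxes. The PERP window was 77.0% G and C with 5 GC boxes, 1 of them overlapping another, and 1 AP-1 match. Over all promoters 45.0% held the GC box, 20.6% the E-box and 7.71% the AP-1 letters, 11.5% the TATA box, 34.6% the CCAAT box, 14.0% the TEAD letters and 1.73% the GRHL letters. Of the 10 genes 8 had a promoter entry, and PKP2 and PKP3 did not. Among the windows not shown, that of DSP was 77% G and C with 8 GC box matches and 2 E-boxes. The DSC3 window was 63.3% G and C with 1 CCAAT box and no GC box. A match describes the letters only, and no match says only that they are not in this window.

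With si-RAB23-1, desmoglein 3 and PERP rose most among the desmosome genes, plakophilin 2, desmoplakin and desmoglein 2 rose by smaller amounts, and none was called lower. All of the 10 genes but PKP1 were tested, and each of these 9 was above 1 FPKM in all 6 libraries. Of the 9, 5 were called higher (limma adjusted p under 0.05 over all 14352 genes tested), beside 8.13% of all genes tested, and 0 lower, beside 7.26%. At an unadjusted limma p under 0.05, 6 were higher and 0 lower, and voom on reads recovered from the FPKM called the same 6 higher and 0 lower. The median log2 fold change of the 9 was 0.22, against 0.0083 over all genes tested. Apart from the values named as voom's, fold changes in log2 units were computed from log2(FPKM + 1), where changes of genes with low values come out too small. In bulk RNA a change in the number of cells that hold a transcript cannot be told apart from a change in its level per cell.

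DSG3, the adhesion molecule targeted by autoantibodies in pemphigus vulgaris, measured 8.93 and 9.37 FPKM in control cells, compared with 18.8 and 17.4 after si-RAB23-1. Both si-RAB23-1 libraries lay far above both controls. The means, 9.15 ± 0.311 and 18.1 ± 0.962 (SD, n = 2 each), differed 1.98-fold, a log2 fold change of 0.91 (SE 0.0572, limma adjusted p = 0.00210). The counts behind them were 1178 and 1012 reads in control cells, compared with 1717 and 2137 after si-RAB23-1.

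PERP encodes a tetraspan membrane protein of desmosomes and is known as a target of p53 and p63. It measured 64.5 and 67.7 FPKM in control cells, compared with 99.0 and 97.6 after si-RAB23-1, again without overlap. The means were 66.1 ± 2.29 and 98.3 ± 1.02 FPKM (SD, n = 2 each), 1.49-fold apart, and the log2 fold change was 0.57 (SE 0.0347, limma adjusted p = 0.00210). The calls of DSG3 and PERP held with any 1 of the 6 libraries left out, with limma adjusted p of at most 0.0295.

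The remaining calls were smaller and rested on particular libraries. DSP, the linker to keratin, measured 32.6 and 32.2 FPKM in control cells, compared with 37.9 and 37.8 after si-RAB23-1 (0.22 on the log2 scale, limma adjusted p = 0.0162). This call was lost without si-NC replicate 1 (0.0892), si-NC replicate 2 (0.101) or si-RAB23-1 replicate 1 (0.0540). PKP2, the plakophilin also found in heart muscle, was at 10.6 and 11.6 against 13.4 and 14.1 FPKM (0.28, limma adjusted p = 0.0231), a call that failed with any 1 library left out (0.0563 to 0.111). Of the 50-base stretches of its principal transcript 7.10% also occur in AC005840.3, a gene with at most 5 reads per library. DSG2 was at 51.8 and 52.2 against 61.8 and 57.6 FPKM (0.19, limma adjusted p = 0.0408), a call that failed without any library but si-RAB23-1 replicate 2 (0.0764 to 0.169). Without the filter on low values the calls of PKP2 (0.0642) and DSG2 (0.105) were lost, and that of DSG2 also under quantile normalization (0.0816). With the 2 groups alone both were lost (0.0563 and 0.0761). For each of these 3 genes both si-RAB23-1 libraries lay above both controls.

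The other tested genes did not pass. DSC3 measured 2.93 and 3.49 FPKM in control cells, compared with 4.05 and 4.04 after si-RAB23-1, without overlap, and its log2 fold change of 0.27 had a limma adjusted p of 0.0914. Voom on recovered reads put it past the threshold (0.32, adjusted p = 0.00691). The si-RAB23-1 libraries overlapped or enclosed the control values for DSC2 (6.22 and 6.30 against 6.61 and 6.15 FPKM), PKP3 (64.4 and 63.5 against 60.8 and 65.7) and JUP (172.2 and 162.5 against 168.2 and 181.7). Their log2 fold changes were 0.02 (95% confidence interval -0.12 to 0.17), -0.02 (-0.13 to 0.09) and 0.06 (-0.06 to 0.18), with limma adjusted p of 0.824, 0.819 and 0.424. So desmoglein 3 rose while the most abundant catenins of the plaque, JUP and PKP3, gave intervals that span 0.

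With si-RAB23-9, PERP alone was called higher, and desmoglein 3 stayed near its control level. Of the 9 tested genes 1 was higher, beside 7.56% of all genes tested, and 0 were lower, beside 5.69%. At an unadjusted limma p under 0.05, 1 gene (DSG2) was lower, and voom on recovered reads also called DSG2 lower. The median log2 fold change was -0.04, against 0.0060 over all genes tested. Both comparisons with si-NC use the same control libraries.

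PERP was at 78.3 and 78.0 FPKM with si-RAB23-9, above both controls (64.5 and 67.7) and below both si-RAB23-1 libraries. Its mean of 78.1 ± 0.241 FPKM (SD, n = 2) was 1.18 times the control (log2 fold change 0.24, limma adjusted p = 0.0127). The call was lost without si-NC replicate 1 (0.0780) or 2 (0.0558), or si-RAB23-9 replicate 1 (0.0879) or 2 (0.0915). DSG3 was at 9.63 and 9.00 FPKM, values that overlap the controls, with a log2 fold change of 0.02 (95% confidence interval -0.12 to 0.16, limma adjusted p = 0.835). DSG2 was at 48.5 and 46.5 FPKM, below both controls, with a log2 fold change of -0.13 (limma adjusted p = 0.124).

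DSC3 was likewise below both controls with si-RAB23-9, at 2.57 and 2.83 FPKM, and did not pass (-0.19, limma adjusted p = 0.209). DSC2 at 6.03 and 5.52 FPKM and JUP at 155.8 and 158.5 were below both controls as well, with log2 fold changes of -0.10 and -0.09 (limma adjusted p = 0.326 and 0.290). PKP3 lay below both controls too, at 61.4 and 62.6 FPKM (-0.04, limma adjusted p = 0.573). DSP at 34.6 and 33.1 FPKM was above both controls (0.06, limma adjusted p = 0.327), and PKP2 at 11.2 in both libraries lay between them (0.01, limma adjusted p = 0.918).

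**Figure D2:**
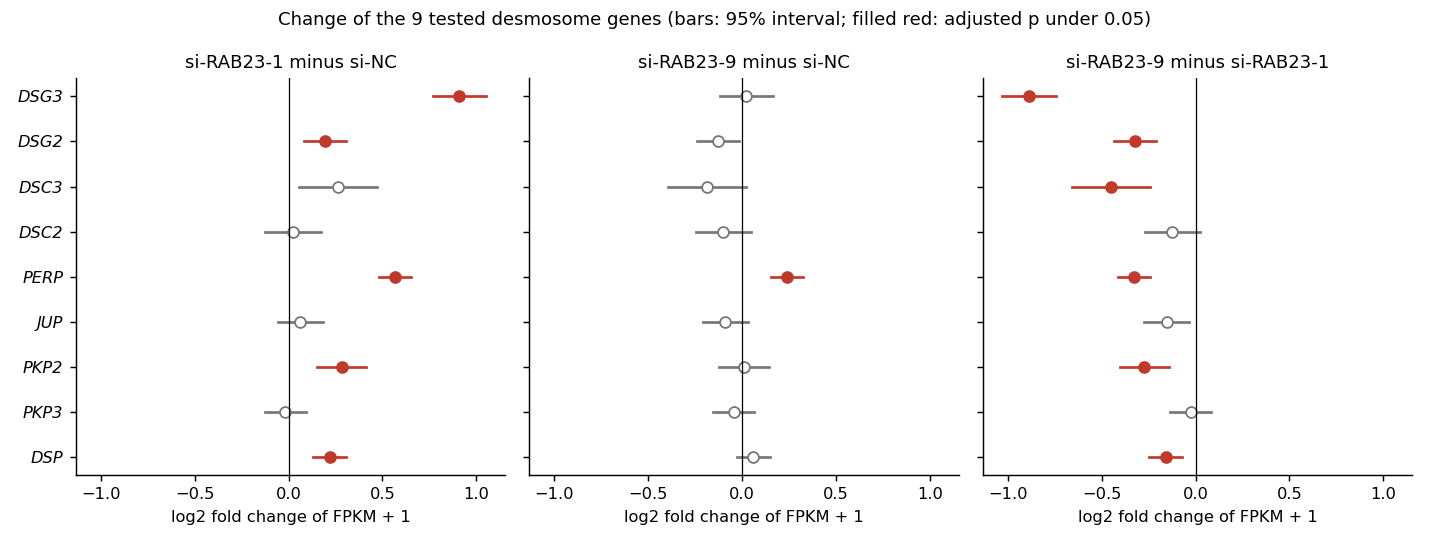
Log2 fold change on the log2(FPKM + 1) scale of each tested desmosome gene with its 95% confidence interval, for either siRNA against si-NC and for the siRNAs against each other; filled points passed limma at an adjusted p under 0.05. DSG3 stands at 0.91 with si-RAB23-1, at 0.02 with si-RAB23-9 and at -0.89 between them.

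Set directly against each other, the siRNAs left desmoglein 3, desmocollin 3, PERP, desmoglein 2, plakophilin 2 and desmoplakin at different levels, lower with si-RAB23-9. All 9 log2 differences, si-RAB23-9 minus si-RAB23-1, were negative with a median of -0.27, against 0.00023 over all genes tested. Of these, 6 were called lower, beside 9.89% of all genes tested, and 0 higher, beside 11.1%. At an unadjusted limma p under 0.05, 7 were lower and 0 higher, and voom on recovered reads called the same 7, JUP being the addition.

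The difference of DSG3 was -0.89 (SE 0.0572, limma adjusted p = 0.00142), with 18.8 and 17.4 FPKM after si-RAB23-1 against 9.63 and 9.00 after si-RAB23-9. For PERP it was -0.33 (limma adjusted p = 0.00422). Both differences held with any 1 library left out. DSG2 differed by -0.32 (limma adjusted p = 0.00870), a call lost only without si-RAB23-9 replicate 2 (0.0644). DSC3 differed by -0.45 (limma adjusted p = 0.0190) although neither siRNA passed against si-NC, its values lying above the controls with the one and below them with the other. Its call was lost without any 1 of the RAB23 siRNA libraries (0.0566 to 0.0942), as was that of PKP2 (-0.27, limma adjusted p = 0.0212, and 0.0556 to 0.102 with a library left out).

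DSP differed by -0.16 (limma adjusted p = 0.0310), a call lost with any 1 library left out (0.0627 to 0.173) or with only the RAB23 siRNA groups fitted (0.0677). Without the filter on low values the calls of DSC3 (0.0674), PKP2 (0.0604) and DSP (0.0589) were lost. JUP (-0.15, limma adjusted p = 0.0789, but 0.0418 among genes with a mean of at least 5 FPKM), DSC2 (-0.12, 0.196) and PKP3 (-0.03, 0.713) did not pass. RAB23 itself gave a difference of 0.11 (95% confidence interval -0.09 to 0.31) that did not pass (limma adjusted p = 0.383).

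The make-up of the cadherins differed with si-RAB23-1. DSG3 made up 12.8 and 13.1% of the summed FPKM of DSG2, DSG3, DSC2 and DSC3 in control cells, 20.6 and 20.4% after si-RAB23-1, and 14.4 and 14.1% after si-RAB23-9. DSG2 remained the main cadherin transcript in every library, at 74.1 and 73.2%, then 67.7 and 67.6%, then 72.7 and 72.8%. The ratio of DSG3 to DSG2 was 0.173 and 0.179 in control cells, 0.304 and 0.302 after si-RAB23-1, and 0.199 and 0.194 after si-RAB23-9. The si-RAB23-1 libraries thus stood apart from the other 4 in this ratio, which a common scaling of a library cannot move.

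Among the desmocollins the ratio of DSC3 to DSC2 was 0.471 and 0.555 in control cells, 0.613 and 0.657 after si-RAB23-1, and 0.425 and 0.513 after si-RAB23-9, so the si-RAB23-1 libraries were again the highest. As shares of the 4 cadherins, DSC2 was 8.90 and 8.82% with si-NC and 7.25 and 7.22% with si-RAB23-1, while DSC3 stayed between 3.85 and 4.90% in all 6 libraries. Among the plakophilins PKP3 made up 81.9 to 85.8% in every library. Summed over all 10 genes the level was 414.2 and 408.9 FPKM in control cells, 470.6 and 482.1 after si-RAB23-1, and 408.0 and 407.3 after si-RAB23-9. No test was made of these shares and sums.

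**Figure D3:**
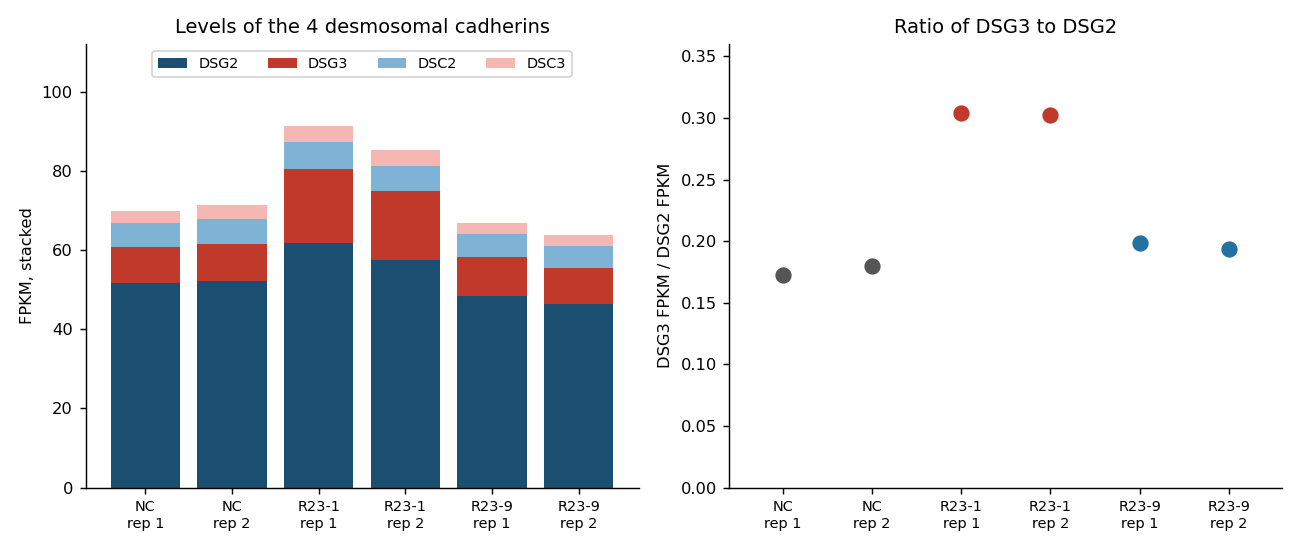
Left, stacked bars of the FPKM of DSG2, DSG3, DSC2 and DSC3 in each of the 6 libraries; right, the ratio of DSG3 to DSG2 FPKM in the same libraries. The ratio is 0.304 and 0.302 with si-RAB23-1 and between 0.173 and 0.199 in the other 4 libraries.

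Genes that work beside desmosomes were counted in lists drawn up by hand from textbook roles. Counts in a list are to be read beside the shares of all genes tested, which were 8.13% higher and 7.26% lower after si-RAB23-1, then 7.56% higher and 5.69% lower after si-RAB23-9. Unadjusted p in these lists means a limma p under 0.05. Among keratin filament genes 11 of 15 were tested: with si-RAB23-1, 3 were higher and 1 lower by limma, but 5 and 5 at an unadjusted p, and 4 and 5 or 4 and 4 by voom, depending on library sizes. KRT6A, a keratin of activated and hyperproliferative squamous epithelium, went from 3.69 and 4.30 FPKM to 9.73 and 8.79 (log2 fold change 1.04). KRT80, a type II epithelial keratin, went from 131.7 ± 6.45 to 48.7 ± 1.88 FPKM (SD, n = 2 each, -1.42). KRT13 (0.84) and KRT17 (0.44) were higher too, calls that held in 3 and 2 of the 6 fits with a library left out, whereas those of KRT6A and KRT80 held in all 6. With si-RAB23-9 KRT6A was higher (0.35) and KRT80 (-0.43), KRT19 (-0.27) and KRT8 (-0.23) were lower. None of those 4 calls held in all 6 fits, and at an unadjusted p, as by voom, 3 keratins were higher and 5 lower.

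Of 6 plakins and other linkers, DST, a plakin of hemidesmosomes, rose with si-RAB23-1 (0.42), as did the actin cross-linker FLNA (0.24), and the desmosomal plakin PPL fell (-0.26). With si-RAB23-9, EVPL was higher (0.24) and PPL lower (-0.23), but at an unadjusted p 1 was higher and 4 lower, by voom 1 and 5. The call of DST held in all 6 fits with a library left out, and each of the others in at most 2. PKP4 and PNN, the 2 tested of 6 other desmosome-related genes, were called in no comparison: PKP4 was at 12.1 to 13.2 FPKM and PNN at 73.5 to 82.1 over the 6 libraries.

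Hemidesmosomes, which bind the cell to the basement membrane, differed between the siRNAs in the same direction as the desmosome genes. With si-RAB23-1, 2 of 7 genes were higher and with si-RAB23-9, 1 was higher and 5 were lower. COL17A1 was higher with both, at 78.4 and 82.5 FPKM in control cells, 130.5 and 138.5 after si-RAB23-1, and 115.4 and 120.5 after si-RAB23-9, and held in all 6 fits for either siRNA. The integrin subunit ITGB4 was lower with si-RAB23-9 (-0.43, highest limma adjusted p with a library left out 0.0518), as were LAMA3 (-0.28), ITGA6 (-0.27) and LAMB3 (-0.27), whose calls held in at most 3 fits. In the direct comparison 6 of 7 were lower with si-RAB23-9, beside 9.89% of all genes tested, and the median difference was -0.36. The direct call of COL17A1 (-0.19) failed with any 1 library left out.

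Other junctions gave mixed counts. Of 9 tested tight junction genes si-RAB23-1 left 5 higher and 1 lower, led by CLDN1 (means 39.5 and 54.9 FPKM, log2 fold change 0.46) and F11R (0.43), both calls holding in all 6 fits. Of the others TJP1 (0.28) held in 3 fits, and MARVELD2 (0.29), CLDN7 (0.20) and OCLN (-0.28) in 0. With si-RAB23-9, 0 were higher and 0 lower by limma (2 and 0 at an unadjusted p, and 2 and 0 or 1 and 0 by voom). Of 10 adherens junction genes si-RAB23-1 left 3 higher and 2 lower, among them P-cadherin (CDH3, 0.27). With si-RAB23-9, 2 were higher and 1 lower, among them E-cadherin (CDH1, 0.13). At an unadjusted p these counts were 4 and 2, and 4 and 1, and voom gave 3 and 3 or 4 and 2, and 4 and 1. AFDN was higher with si-RAB23-1 and si-RAB23-9 (0.31 and 0.24), and VCL was lower with both (-0.22 and -0.24). None of these AFDN and VCL calls held in every fit with a library left out. The calls of CDH3 and CDH1 held in 4 and 2 of the 6 fits.

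Among 18 tested genes that regulate, cleave or modify desmosomes, 3 were higher and 4 lower with si-RAB23-1 (7 and 4 at an unadjusted p under 0.05, and 5 and 5 or 7 and 5 by voom). With si-RAB23-9, 0 were higher and 3 lower by limma (2 and 5 at an unadjusted p under 0.05, and 2 and 5 by voom). KLK5, a protease known in skin for its part in cleaving desmosomal cadherins, fell with si-RAB23-1 (-0.42), a call that held in all 6 fits. ADAM10, a membrane protease that sheds cadherins, was lower with si-RAB23-1 (-0.44) and with si-RAB23-9 (-0.28), calls that held in 4 and 2 fits. CAV1, the caveolar coat gene, moved in opposite directions, by 0.41 and -0.37 (4 and 2 fits), and the direct difference of -0.78 held in all 6.

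TP63, the master regulator of squamous epithelia and a known regulator of PERP, measured 14.2 and 14.6 FPKM in control cells. It measured 19.7 and 19.1 after si-RAB23-1 and 12.0 and 11.4 after si-RAB23-9, so the 3 groups did not overlap. Its log2 fold changes were 0.40 (limma adjusted p = 0.00574, lost in 1 of 6 fits, highest 0.0517) and -0.28 (0.0156, held in 2 fits), and the direct difference of -0.68 held in all 6. Of 13 tested squamous transcription regulators si-RAB23-1 left 4 higher and 2 lower, and si-RAB23-9 left 2 higher and 2 lower. At an unadjusted p these counts were 4 and 4, and 5 and 2, and voom gave 4 and 4 or 4 and 3, and 5 and 2. SOX2 was higher with both siRNAs (0.70 and 0.73, held in 6 and 5 fits). FN1, from the list of mesenchymal genes, was also higher with both (0.84 and 0.52), the call with si-RAB23-9 failing in some fits with a library left out. Of the 6 tested genes of that list, 2 were higher and 0 lower with either siRNA. At an unadjusted p these counts were 3 and 0, and 3 and 1, and voom gave 3 and 0, and 2 and 1. SNAI2 was called higher with si-RAB23-1 only (0.36, and -0.20 with si-RAB23-9), and TWIST1 with si-RAB23-9 only (0.55, and 0.20 with si-RAB23-1). Both calls failed in some fits with a library left out. The direct difference of SNAI2 (-0.57) held in all 6 fits, and that of TWIST1 (0.35) did not pass.

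PERP rose where other p53 targets fell or did not pass. Of 12 such genes, si-RAB23-1 left 0 higher and 7 lower (median log2 fold change -0.33), and si-RAB23-9 left 0 higher and 5 lower (median -0.24). CDKN1A, the cell cycle inhibitor p21, went from 113.1 and 105.6 to 65.9 and 72.3 FPKM with si-RAB23-1 (-0.66), and TP53INP1 from 10.3 and 10.8 to 3.47 and 3.98 (-1.30), both held in all 6 fits. Among the genes lower with si-RAB23-9, RRM2B (-0.56) held in all 6. At an unadjusted limma p under 0.05, si-RAB23-1 left 0 higher and 8 lower and si-RAB23-9 left 1 and 7; voom gave 0 and 8, and 0 and 6.

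**Figure D4:**
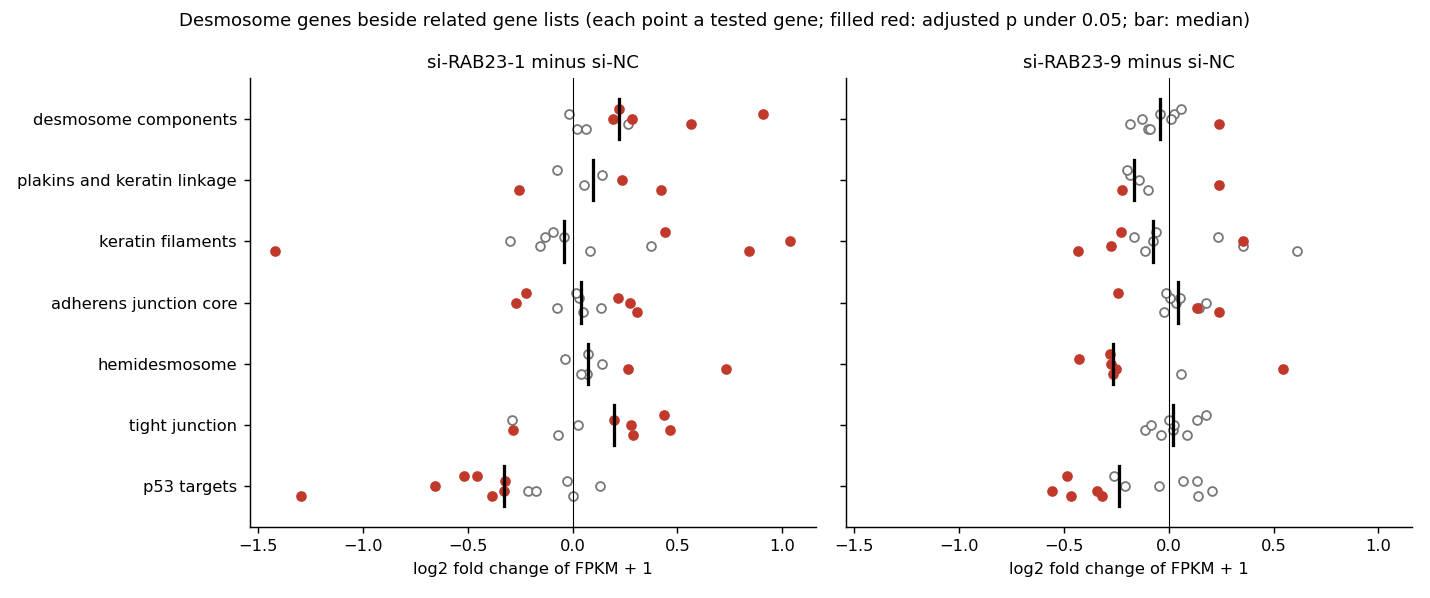
Log2 fold changes of the genes in each list against si-NC, 1 point per tested gene (filled where limma's adjusted p was under 0.05), with the list's median as a bar, si-RAB23-1 on the left and si-RAB23-9 on the right. The desmosome genes have medians of 0.22 and -0.04, the hemidesmosome genes of 0.07 and -0.27, and the p53 targets of -0.33 and -0.24.

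Markers of another cell type moved in 1 case beside these results. CDH5, an endothelial cadherin, measured 3.65 and 3.60 FPKM in control cells, 1.49 and 1.98 after si-RAB23-1, and 2.65 and 3.07 after si-RAB23-9. Its log2 fold change was -0.77 with si-RAB23-1 (limma adjusted p = 0.0112), a call that failed with either si-NC library left out. With si-RAB23-9 it was -0.26 and did not pass (limma adjusted p = 0.169). The 8 endothelial markers summed to 1.82 to 4.07 FPKM, CDH5 was the only one to reach 1 FPKM, and KDR was at 0 in every library. Its part in the desmosome results was not tested.

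The genes with the pattern most like that of DSG3 over the 6 libraries were ITPA (Pearson's r of log2(FPKM + 1) 0.9993), PAAF1 (0.9981) and CLDN1 (0.9969). For PERP they were EXOSC5 (0.9985), GALK2 (0.9959) and RXRB (0.9951). ITPA measured 34.6 and 35.2 FPKM in control cells, 44.1 and 43.3 after si-RAB23-1, and 35.9 and 34.8 after si-RAB23-9. These values describe the 6 libraries and were the highest among 14352 genes.

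An siRNA can lower transcripts whose 3′ UTR matches its seed. The annotated 3′ UTRs of 10911 genes were scanned for 7-mers, and 14312 of these had at least 200 carriers. They were ranked by the share of carriers called lower minus that share among the other genes. No source used here gives the siRNA sequences, so the 7-mers are a description of these data. The leading 7-mer with si-RAB23-1 was GACATAT (928 carriers, 25.6% lower, against 7.11% of the other genes), and with si-RAB23-9 it was AAGTTAA (2025 carriers, 17.4% lower, against 4.2%). GACATAT was carried by 8.51% of the scanned genes and by 1 of the 10 desmosome genes. AAGTTAA was carried by 18.6% of the scanned genes and by 2 of the 10. The desmosome genes that carry them are shown, 27 bases each on the gene's strand, with the 7-mer in capitals.
DSC2, chr18:31068140-31068166, minus strand: actatgtcctGACATATaactatgaag
DSG2, chr18:31548181-31548207, plus strand: ccttttctacAAGTTAAtttttttaca
DSC3, chr18:30993142-30993168, minus strand: acctttactgAAGTTAAatcctctatt
DSC2, the carrier of the si-RAB23-1 7-mer, had a log2 fold change of 0.02 with that siRNA. DSG2 and DSC3, the carriers of the si-RAB23-9 7-mer, had log2 fold changes of -0.13 and -0.19 with si-RAB23-9, which did not pass by limma. DSG3 and PERP carry neither 7-mer in their annotated 3′ UTRs. The next 7-mer in the si-RAB23-9 ranking, AGTTAAA, overlaps the first (2109 carriers, 17.1% lower, against 4.14%). It is carried by DSC3, PKP1 and PERP, and by 19.3% of the scanned genes. The next after it, AAAGTTA (13.9% lower, against 4.69%), is carried by DSC2 and by 21.2% of the scanned genes. With si-RAB23-1 the next were TGTTCGC, carried by no desmosome gene, and TGACATA, carried by DSC2 and by 10.9% of the scanned genes. Whether these matches bear on the levels was not tested.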

How the data were processed

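Total RNA of KYSE30 cells was sequenced in 6 libraries, 3 groups of 2 taken from the sample titles. The authors deposited 1 table of gene-level FPKM, used as deposited. Per the submitters' processing notes, which give no roles, the build was hg19 and the tools included STAR 2.5.1b, RSEM 1.2.29, Trimmomatic 0.36, FastQC and edgeR 3.8.5. The coordinates of all 58735 genes equal those of GENCODE 29 on GRCh38. FPKM times gene length, divided by the value of 1 read in that library, gave whole reads for 100% of values, within 0.01 of a read, and reads quoted are these.

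Values were tested as log2(FPKM + 1) with limma 3.58.1 (R 4.3.3), with a mean-variance trend and 3 residual degrees of freedom. All 6 libraries entered 1 fit, and tests were two-sided. Genes at 1 FPKM or more in at least 2 libraries (14352) were tested, and the Benjamini-Hochberg adjusted p of a call was under 0.05. The test was first tried on simulated data. Alternatives were other pseudocounts, filters and scalings, voom on the recovered reads, the 2 groups alone, a replicate block, and each library left out.

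The genes described and the lists were chosen with earlier results of these data known. Named were all 10 desmosome genes, RAB23, up to 4 called genes per list and comparison, and the 3 genes most like DSG3 and PERP, the desmosome genes with the largest change for either siRNA on the log2(FPKM + 1) scale. Genes of another cell type's marker list were named where they moved. Promoters are from RefSeq (GRCh38.p14), and 3′ UTRs from GENCODE 29.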

Additional observations from a re-analysis of the deposited data

Results flagged for a closer look

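For 6 desmosome genes the effects of the siRNAs differed from each other in the direct limma test, si-RAB23-9 minus si-RAB23-1 on the log2(FPKM + 1) scale. The differences were -0.89 for DSG3, -0.45 for DSC3, -0.33 for PERP, -0.32 for DSG2, -0.27 for PKP2 and -0.16 for DSP. DSG3 and PERP alone kept the call with each of the 6 libraries left out in turn. Groups of 2 libraries are too small for a test of single outlying libraries.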

How the results depend on the processing

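Leaving out 1 library at a time, 338 to 1820 genes were called for si-RAB23-1 against si-NC (2209 with all libraries), 258 to 2075 for si-RAB23-9 against si-NC (1902) and 705 to 2691 between the siRNAs (3019). Of the desmosome genes 2 to 4 (5), 0 to 1 (1) and 2 to 5 (6) were called. A group left with 1 library was assumed to vary like the others. Without a filter 1049, 983 and 1458 genes were called, and 3 desmosome genes for si-RAB23-1 and 3 between the siRNAs. With only the 2 groups compared, 1234 genes and 3 desmosome genes were called for si-RAB23-1, and 1919 genes between the siRNAs. Voom on recovered reads called 3800 or 3794 genes for si-RAB23-1, depending on library sizes, and 3408 or 3407 genes with 2 desmosome genes for si-RAB23-9; the cause was not tested.

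The replicate numbers did not pair the libraries (correlations of replicate differences -0.06, -0.02 and 0.06). With the replicate block 1655, 1437 and 2423 genes and 4, 1 and 5 desmosome genes were called, DSG2 losing its call for si-RAB23-1 (adjusted p = 0.0524) and DSP that between the siRNAs (0.0509).

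Of 429 alternative values of single desmosome genes, 369 kept direction and side of the threshold, 44 fell short of it, 7 passed it and 9 changed sign. None of those 9 belonged to a call. For si-RAB23-1 they were DSC2 without si-RAB23-1 replicate 1 (-0.022, and 0.069 without replicate 2) and by voom on library totals (-0.0044), PKP3 without si-RAB23-1 replicate 1 (0.037, and -0.073 without replicate 2) and JUP under quantile normalization (-0.018). For si-RAB23-9 they were DSG3 without si-NC replicate 1 (-0.0087) or si-RAB23-9 replicate 1 (-0.022, and 0.067 without replicate 2), and PKP2 under quantile normalization (-0.00099) and without si-NC replicate 1 (-0.046, and 0.067 without replicate 2). Between the siRNAs it was PKP3 without si-RAB23-1 replicate 2 (0.029, and -0.081 without replicate 1). PKP1, at 1 to 5 reads per library, lies below what this depth can compare.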
